A study of Homo sapiens with 16 samples.

Results

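SOX7 and 9 related SOX genes (SOX17, SOX18, SOX4, SOX11, SOX12, SOX2, SOX5, SOX6 and SOX9) were followed by RNA-seq in SK-N-BE(2), a human neuroblastoma line with amplified MYCN. They were taken by symbol from a table of 63187 genes, and all 10 were found there. The 16 libraries form 4 groups of 4: wild-type cells (WT), and cells transfected with full-length HIF-2α (FL) or with the HIF-2α forms labelled NCTAD and cIDR, which the series design writes with a Δ before the name. HIF-2α is the product of EPAS1. Each group has 1 library in each of 4 batches, numbered like the replicates. All groups grew at 21% oxygen with 10% serum. The vector, the time after transfection, the residues concerned and any empty-vector control are not given in the labels, so transfection as such and the HIF-2α form cannot be told apart in a comparison with WT.

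SOX proteins are transcription factors that bind and bend DNA through an HMG box and are sorted into groups by the similarity of that box. SOX7, SOX17 and SOX18 (group F) are known for their roles in blood vessels and early endoderm, and SOX7 and SOX17 can repress transcription driven by β-catenin. SOX4, SOX11 and SOX12 (group C) act in differentiating neurons and sympathetic precursors, SOX2 (group B1) maintains neural progenitors, SOX5 and SOX6 (group D) lack an activation domain of their own, and SOX9 (group E) is a regulator of neural crest, glia and cartilage. HIF-2α is a transcription factor that is degraded when oxygen is plentiful and binds DNA together with ARNT.

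SOX7 was chosen by its measured count difference between NCTAD and WT, which had passed the test in these data, and the other 9 genes by family. Its values in that contrast are therefore given as a description, with no test, and every other comparison with WT shares the same 4 WT libraries. The labels were checked with EPAS1, which gave 13.0 to 28.1 CPM (counts per 1 M, mega, with library sizes scaled by the TMM method) in WT and 1320 to 5850 CPM in the 12 transfected libraries. Library totals ranged from 38.6 to 56.1 M counts. Of 9 neuroblastoma markers, all 9 passed the filter on low counts, with summed levels of 4430 to 5770 CPM. Of 9 endothelial markers, the cell type best known for group F genes, 3 passed it (EGFL7, VWF and CDH5), whereas KDR and TIE1 were close to 0 in every library.

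Per transcript length, SOX4 was the most abundant of the 10 genes. Deposited TPM (transcripts per 1 M) averaged 63.8 ± 6.92 (SD, n = 16) for SOX4, 24.4 ± 1.76 for SOX12 and 22.6 ± 4.11 for SOX7. The order of SOX12 and SOX7 depended on the group: SOX12 was above SOX7 in 4 of 4 WT libraries (25.0 ± 1.69 against 17.7 ± 0.46 TPM) and in 3 of 4 of FL and of cIDR, and SOX7 was above SOX12 in 4 of 4 NCTAD libraries (26.3 ± 0.99 against 23.8 ± 0.77 TPM). SOX9 followed with 5.29 ± 1.13 TPM, then SOX2 with 1.61 ± 0.43 and SOX18 with 1.09 ± 0.17. SOX5 (0.22 ± 0.18 TPM) and SOX6 (0.14 ± 0.087) were below 1 TPM in every library, and their order held in 9 of 16 libraries. SOX11, part of the core circuit of many adrenergic neuroblastomas, had 0 to 15 counts per library, or 0.020 ± 0.015 TPM. SOX17 had 0 counts in all 16 libraries, and a count of 0 allows up to 3 counts, or 0.0528 to 0.0812 CPM depending on the library. SOX11 and SOX17 did not pass the filter, so 8 of the 10 genes were tested.

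**Figure D1:**
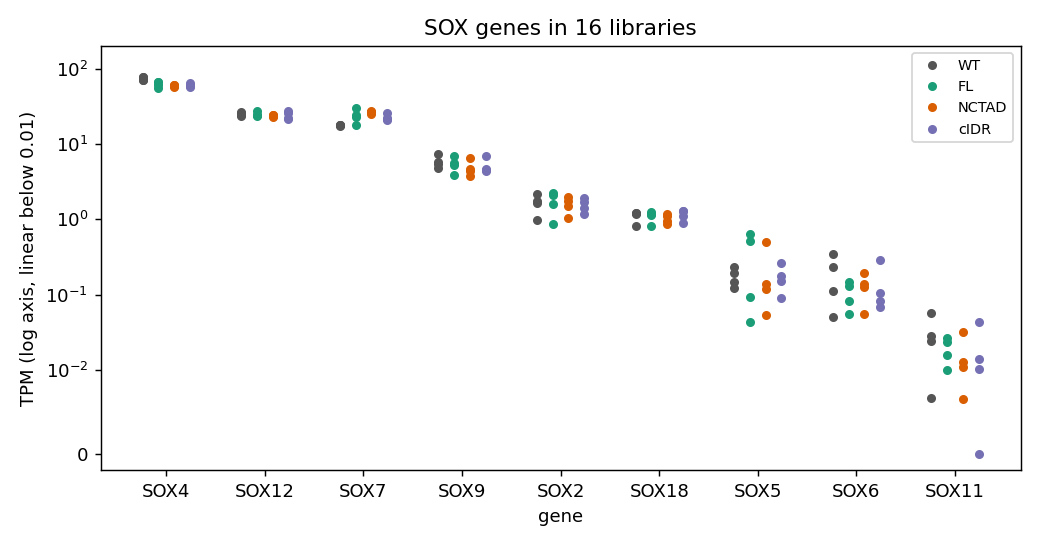
TPM (log axis, linear below 0.01) of 9 SOX genes in 16 libraries, 1 point per library, coloured by group; SOX17 is left out because it was at 0 throughout. SOX4 lies above all other SOX genes, SOX12 and SOX7 overlap, and SOX11 lies near 0.

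Of the other 9 SOX genes of the family that were looked up, only SOX13, a group D gene, passed the filter, at 0.558 to 2.15 CPM. SOX10, the group E gene of the glial lineage, had at most 4 counts in a library.

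SOX7 (ENSG00000171056.8; GENCODE 29 on GRCh38 places it at chr8:10723768-10730512 on the minus strand, with 2 exons) was low and even in WT cells and higher in every transfected library. In batches 1 to 4, WT libraries had 39.1, 37.8, 39.2 and 37.2 CPM. FL libraries had 44.7, 65.5, 50.0 and 49.5 CPM. NCTAD libraries had 62.6, 59.0, 59.2 and 61.6 CPM, and cIDR libraries had 50.5, 57.2, 51.1 and 47.5 CPM. None of the 12 transfected libraries overlapped the 4 WT libraries, NCTAD was high and narrow, and FL was spread out by its batch 2 library. Of 19530 tested genes, 0.0973% were higher without overlap in all 3 constructs in this way and 0.041% were lower, among them 0 SOX genes. Nothing is read from these shares for SOX7, because they include the NCTAD and WT libraries that chose it. On the TPM scale the FL library of batch 1 (18.0) fell among the WT libraries (17.1 to 18.0), while the other 11 stayed above them.

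Group means of SOX7 were 38.3 ± 0.97 CPM (SD, n = 4) for WT, 52.4 ± 9.04 for FL, 60.6 ± 1.75 for NCTAD and 51.6 ± 4.06 for cIDR. The difference between NCTAD and WT, which chose the gene, was 0.66 ± 0.098 (log2 fold change ± SE), and within batches 1 to 4 it was 0.68, 0.64, 0.60 and 0.73. The choice of SOX7 fixed its place as a called gene without overlap in that comparison, so nothing is read from the all-gene shares there (0.0256% called and 0.876% higher without overlap). Of the other 7 tested SOX genes, 0 were called. Over the alternative settings the SOX7 difference ranged from 0.54 to 0.73. Without a term for batch, the SOX7 call was lost in both fits to TPM and when any single library of either group was left out.

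FL exceeded WT by 0.45 ± 0.098 in log2 SOX7, which did not pass the test (edgeR quasi-likelihood test, adjusted p = 0.749). The within-batch differences were 0.19, 0.79, 0.35 and 0.41, higher in 4 of 4 batches. With the batch as a replicate block the difference was 0.44 ± 0.082 (adjusted p = 0.0665), and it passed only when the FL library of batch 1 was left out (0.51, adjusted p = 0.0278). SOX7 was higher in FL than in WT without overlap, as for 0.456% of all genes, and 0.358% were lower without overlap, among them 0 SOX genes. In this comparison 0.0102% of all genes were called, and none of the SOX genes. Because the WT libraries also chose SOX7, its p-values and its place among these shares are not independent of that choice.

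The cIDR form exceeded WT by 0.43 ± 0.098 in log2 SOX7 (edgeR adjusted p = 1), with 0.37, 0.60, 0.38 and 0.35 in batches 1 to 4. With the replicate block SOX7 rose by 0.43 ± 0.082 (edgeR adjusted p = 0.0331), a call made for 0.486% of all genes with the block and 0.0102% without it. That call was lost whichever of the 8 libraries was left out (adjusted p 0.0753 to 0.191), and without batch 2 as a whole (0.0699). Without overlap and higher, as SOX7 was, were 0.876% of all genes, and 0.594% were lower, among them 0 SOX genes. The p-values and shares of SOX7 here use the WT libraries that chose it, so they are not independent of that choice.

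**Figure D2:**
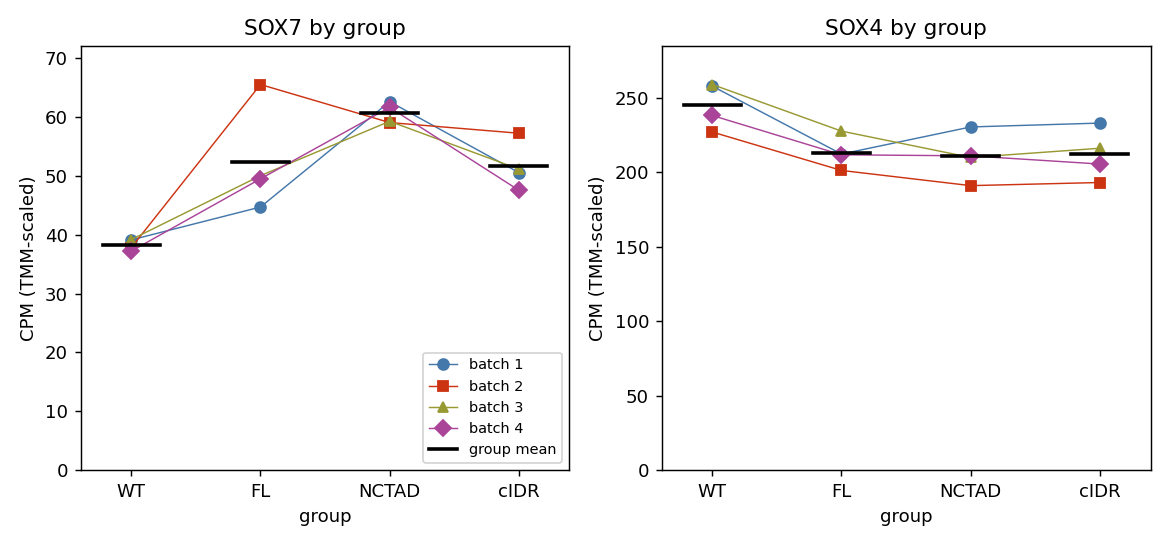
CPM (TMM-scaled) of SOX7 (left) and SOX4 (right) in each group; each line joins the 4 libraries of a batch and black bars are group means. SOX7 starts at 37.2 to 39.2 CPM in WT and is higher in all 12 transfected libraries, whereas SOX4 goes down from WT in every batch.

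Among the 3 constructs, mean SOX7 was highest in NCTAD, but no difference between constructs passed the test. NCTAD exceeded FL by 0.21 ± 0.098 (edgeR unadjusted p = 0.0485, adjusted p = 1), but the FL library of batch 2 was the highest of all 16, so the groups overlapped. The cIDR form was below NCTAD by a log2 difference of −0.23 ± 0.098 (unadjusted p = 0.031, adjusted p = 1), with no overlap between the groups, as for 0.41% of all genes in that direction (0.302% were higher, with 0 SOX genes). On the TPM scale these groups overlapped, since the cIDR library of batch 2 (26.0) lay above the NCTAD library of batch 1 (25.0). The cIDR and FL forms differed by −0.023 ± 0.098 (edgeR adjusted p = 1), and this sign turned to 0.099 without the FL library of batch 2. None of the 8 tested SOX genes was called in any of these 3 comparisons, with or without the block; all-gene shares were 0% without the block and, with it, 0% (NCTAD against FL), 0.0307% (cIDR against FL) and 0.00512% (cIDR against NCTAD). At an unadjusted p under 0.05 there was 1 of 8 SOX genes in NCTAD against FL (0.886% of all genes), 0 in cIDR against FL (0.906%) and 1 in cIDR against NCTAD (0.609%), SOX7 in both cases, which shares its NCTAD libraries with the contrast that chose it. DESeq2 called 0 SOX genes in each.

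EPAS1 and SOX7 were both higher in all 12 transfected libraries than in the 4 WT libraries. Mean EPAS1 was 2610 ± 906 CPM (SD, n = 4) with FL, 2850 ± 1330 with NCTAD and 4480 ± 1740 with cIDR, and no EPAS1 difference between constructs passed the test (edgeR adjusted p = 1 for each pair). The part of EPAS1 level in the SOX7 differences between constructs was not tested. In NCTAD, EPAS1 went from 1320 CPM in batch 2 to 4230 CPM in batch 3, while SOX7 was 59.0 and 59.2 CPM. Reads from the gene and from the transfected sequences are counted together, and a shorter construct gives fewer reads per copy.

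**Figure D3:**
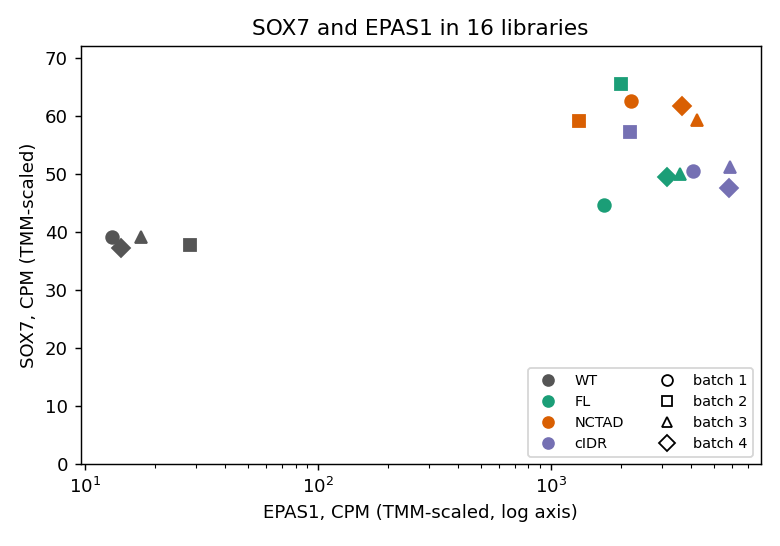
SOX7 CPM against EPAS1 CPM (log axis) in 16 libraries, coloured by group, with a symbol for each batch. WT libraries sit at the lower left, and among the transfected libraries NCTAD has 59.0 to 62.6 CPM of SOX7 over its range of 1320 to 4230 CPM of EPAS1.

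The 5 genes whose pattern was most like that of SOX7, by Pearson's r over the 16 libraries on log2 CPM with each batch mean subtracted, were TMEM62 (r = 0.963), DSE (0.962), SOBP (0.958), SLC2A1 (0.946) and ENG (0.94). These values describe genes picked for their likeness, and the 16 points share groups and batches. SLC2A1, the glucose transporter GLUT1, averaged 62.4 CPM in WT cells, 85.8 with FL, 104 with NCTAD and 91.8 with cIDR. ENG, the TGF-β co-receptor endoglin, averaged 5.85, 9.42, 9.61 and 8.24 CPM in the same order.

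SOX7 shares 1268 exonic bases, or 39.4% of its exonic length, with a readthrough gene on the same strand (ENSG00000258724, which the table also names PINX1), so reads from these bases cannot be assigned to SOX7 alone. The readthrough gene was estimated at 0.485 to 6.89 CPM, which was 1.07% to 9.52% of the sum of both genes. With its counts added to SOX7, the difference from WT was 0.44 for FL, 0.65 for NCTAD and 0.41 for cIDR. The NCTAD value is again a description. FL and cIDR did not pass without the block (edgeR adjusted p = 1 for both), and the call of cIDR with the block was lost (0.41 ± 0.093, adjusted p = 0.0883). PINX1 itself (ENSG00000254093), which lies next to SOX7, had 29.2 to 44.3 CPM and was not called in any comparison of groups.

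SOX18, which acts with SOX7 in vascular development, was low in all groups. Its means were 1.32 ± 0.23 CPM (SD, n = 4) for WT, 1.34 ± 0.19 for FL, 1.31 ± 0.25 for NCTAD and 1.44 ± 0.22 for cIDR, and all groups overlapped. The 3 tested endothelial markers were higher than WT in 4 of 4 batches in each construct. Their median log2 differences were 1.16 (FL), 1.46 (NCTAD) and 1.33 (cIDR). VWF and CDH5 had as little as 0.0965 and 0.0209 CPM in a WT library. They passed the filter through transfected or batch 2 libraries, where they were higher. That all tested markers rose is therefore partly set by the filter, and the medians leave out the markers that did not pass. Calls were made only with the block. With it, EGFL7, a matrix protein secreted by endothelial cells, rose by 1.75 ± 0.24 (log2) in NCTAD (edgeR with block, adjusted p = 0.0022) and by 1.89 ± 0.24 in cIDR (0.000984), and VWF rose by 1.65 ± 0.34 in cIDR (0.0439), where 0.456% (NCTAD) and 0.486% (cIDR) of all genes were called. VWF in NCTAD (0.88 ± 0.34, adjusted p = 0.682) and CDH5 in NCTAD (2.11 ± 0.50, 0.121) and cIDR (1.32 ± 0.51, 0.768) did not pass. In FL, EGFL7 differed by 1.13 ± 0.24 and VWF by 1.26 ± 0.34, which did not pass (edgeR with block, adjusted p = 0.121 and 0.413). Summed endothelial markers, mostly EGFL7, were 1.82 to 15.9 CPM in WT and 2.73 to 39 CPM in the transfected libraries. Their part in the SOX7 result was not tested.

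SOX4 (ENSG00000124766.7; chr6:21592768-21598619, plus strand, 1 exon) was lower than WT in every batch of every construct. WT libraries had 258, 227, 259 and 238 CPM in batches 1 to 4. FL libraries had 212, 201, 228 and 212 CPM. NCTAD libraries had 230, 191, 210 and 211 CPM, and cIDR libraries had 233, 193, 216 and 206 CPM. The groups overlapped only through the WT library of batch 2, the lowest in WT. On the TPM scale WT (69.5 to 77.2) lay above all 12 transfected libraries (55.4 to 66.9). The share of all genes without overlap was not computed on that scale, so nothing is read from this separation.

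Within batches SOX4 differed from WT by −0.28 to −0.17 (log2) with FL, −0.30 to −0.16 with NCTAD and −0.26 to −0.15 with cIDR. The fitted differences were −0.20, −0.22 and −0.21, each ± 0.079 (SE), and none passed (edgeR adjusted p = 1 for each). With the replicate block the adjusted p-values were 0.193, 0.052 and 0.0668. With the 3 constructs pooled against WT, a comparison added after seeing the data, SOX4 differed by −0.21 ± 0.064 (edgeR adjusted p = 1) and with the block fell by 0.21 ± 0.037 (adjusted p = 0.0151), lower in 4 of 4 batches. In that pooled comparison 0.0154% of all genes were called without the block and 0.497% with it.

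SOX12, the other abundant group C gene, showed no difference that passed the test. It had 79.9 ± 5.84 CPM (SD, n = 4) without a construct, 82.1 ± 12.8 with FL, 81.3 ± 6.49 with NCTAD and 81.3 ± 8.48 with cIDR, and the pooled difference from WT was 0.030 ± 0.087 on the log2 scale. The highest libraries of FL (101 CPM) and NCTAD (91.0 CPM) were both from batch 1, as were the highest of WT (86.4) and of cIDR (89.0). Of 12 genes with known roles in neuronal differentiation that group C factors are linked to, 11 were tested and 0 were called in any construct against WT, with or without the block, where 0.0102% to 0.0256% of all genes were called without it and 0.102% to 0.486% with it, too few to set this list apart. The median log2 difference of those 11 in the pooled comparison was 0.020, against 0.012 over all genes.

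Start-site sequence is shown for these group C genes, which were picked after their levels were seen. SOX4 did not pass against WT in any single construct, with or without the block. A link between sequence and level was not tested. RefSeq windows (GRCh38.p14) of the 250 bases before the start were matched by symbol for 5 of the 10 genes (SOX2, SOX4, SOX5, SOX6 and SOX12). They were searched on both strands for the core of the HIF binding site, ACGTG or GCGTG, which 43.2% of 35116 windows of all genes contain. The SOX4 window holds 1 match, beginning 147 bases before the start, here as 29 bases of the plus strand (chr6:21593592-21593620) with the match, the reverse complement of GCGTG, in capitals. GENCODE 29 places all 29 bases inside the SOX4 exon. The SOX12 window (chr20:325302-325551, plus strand) holds no match.
SOX4: agcttctcattgCACGCggagattattat
SOX12: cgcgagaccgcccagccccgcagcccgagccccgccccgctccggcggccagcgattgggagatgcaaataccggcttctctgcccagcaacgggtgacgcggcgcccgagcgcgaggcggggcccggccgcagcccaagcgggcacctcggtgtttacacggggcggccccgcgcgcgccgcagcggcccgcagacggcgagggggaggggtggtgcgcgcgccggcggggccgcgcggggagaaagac
Of the 9 windows of the 5 genes, 2 held this core, those of SOX4 and SOX5. The letters ACAATG or ACAAAG, cores bound by SOX proteins, were in 4 of the 9 windows and in 21.2% of all windows. A match describes letters only.

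SOX2 (chr3:181711924-181714436, plus strand, 1 exon) and SOX9 (chr17:72121020-72126420, plus strand) were not called in any comparison of groups. SOX2 had 2.69 ± 0.80 CPM (SD, n = 4) in WT and 2.72 to 2.85 CPM in the constructs, and its lowest library in each group was the one of batch 1 (1.65 to 2.08 CPM). SOX9 had 15.5 ± 2.64 CPM in WT cells, 14.7 ± 2.81 with FL, 13.7 ± 2.76 with NCTAD and 14.3 ± 2.91 with cIDR. In log2, SOX9 differed from WT by −0.073 ± 0.18 with FL, −0.18 ± 0.18 with NCTAD and −0.11 ± 0.18 with cIDR (edgeR adjusted p = 1 for each). Within batches SOX9 was lower than WT in 3 of 4 with FL, 3 of 4 with NCTAD and 4 of 4 with cIDR. With the replicate block, which takes out the batch 2 level, the differences were −0.077, −0.19 and −0.12, each ± 0.072 (adjusted p = 0.924, 0.676 and 0.999). SOX5 and SOX6 had 0.40 to 0.46 and 0.51 to 0.68 CPM as group means and were not called in any comparison of groups.

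**Figure D4:**
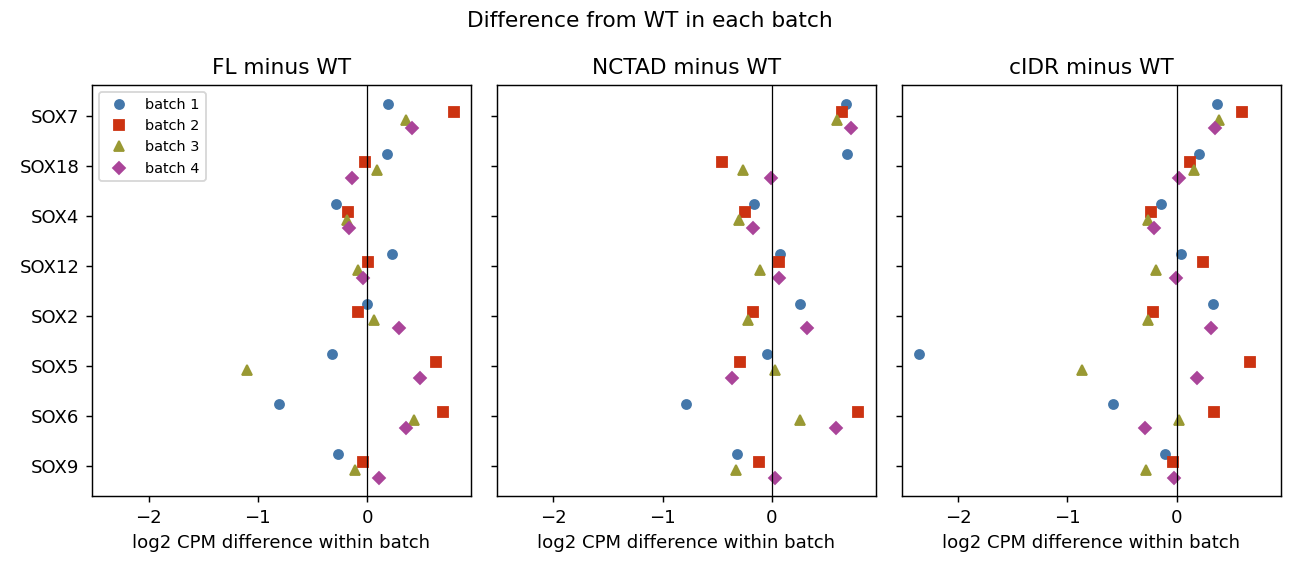
Difference in log2 CPM between each construct and the WT library of the same batch, for the 8 tested SOX genes; each symbol is a batch and the vertical line is 0. SOX7 lies to the right of 0 and SOX4 to the left in all 12 pairs, while the low genes SOX5 and SOX6 scatter widely.

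SOX9 was higher in batch 2 than in the other batches, in all 4 groups. SOX9 had 19.2, 18.6, 17.6 and 18.7 CPM in batch 2 (WT, FL, NCTAD and cIDR) and 11.5 to 15.3 CPM in the other 12 libraries, with no overlap, as for 14.4% of all genes in that direction. It rose in batch 2 by 0.49 ± 0.057 (log2, edgeR adjusted p = 4.4e-06), with 0.43 to 0.54 in each of the 4 groups. The labels name the batches without saying what sets them apart, and libraries of a batch are not independent of each other, so this test measures only the spread between libraries. SOX9-AS1, an RNA annotated on the opposite strand at this locus, also rose in batch 2 (1.09 ± 0.24, adjusted p = 0.00121).

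Of the 8 tested SOX genes, 4 were called between batch 2 and the others, SOX9 and SOX5 higher and SOX4 and SOX6 lower. That is 50%, near the 53.9% of all genes that were called (27.7% higher and 26.1% lower). SOX4 fell in batch 2 by 0.15 ± 0.038 (log2, edgeR adjusted p = 0.0031), from a mean of 252 to 227 CPM in WT and from 217 or 218 to 191 to 201 CPM in the constructs. On the TPM scale that call was lost (limma on log2(TPM + 1), −0.081, adjusted p = 0.219). SOX5 (0.91 ± 0.36, edgeR adjusted p = 0.0464) and SOX6 (−0.58 ± 0.24, adjusted p = 0.049) rest on at most 47 and 45 counts per library. Both calls were lost with DESeq2 (0.0764 and 0.108), and leaving out the cIDR library of batch 2 for SOX5 (0.56, adjusted p = 0.288) or the WT library of batch 2 for SOX6 (−0.41, 0.209) moved them most. Mean SOX6 was 0.435 CPM in batch 2 and 0.488 in batch 1, against 0.775 and 0.714 in batches 3 and 4. Its low level was thus not particular to batch 2.

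SOX12 (−0.042 ± 0.054), SOX2 (−0.064 ± 0.11) and SOX18 (0.018 ± 0.16) were not called in batch 2. SOX7 was 0.15 ± 0.066 higher there (edgeR adjusted p = 0.0675). By group, SOX7 in batch 2 was 37.8 CPM against a mean of 38.5 for WT, 65.5 against 48.1 for FL, 59.0 against 61.1 for NCTAD and 57.2 against 49.7 for cIDR. The difference of FL from WT was 0.47 ± 0.14 larger in batch 2 than in the other batches (edgeR interaction term, added after seeing that library, adjusted p = 1). That term rests on 1 FL and 1 WT library in batch 2, and the other libraries supply its spread. Without the FL library of batch 2, the batch difference of SOX7 was 0.038. It passed when the WT library (0.20, adjusted p = 0.0342) or the NCTAD library (0.21, 0.0253) of batch 2 was left out, and when the readthrough counts were added (0.19, 0.044).

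**Figure D5:**
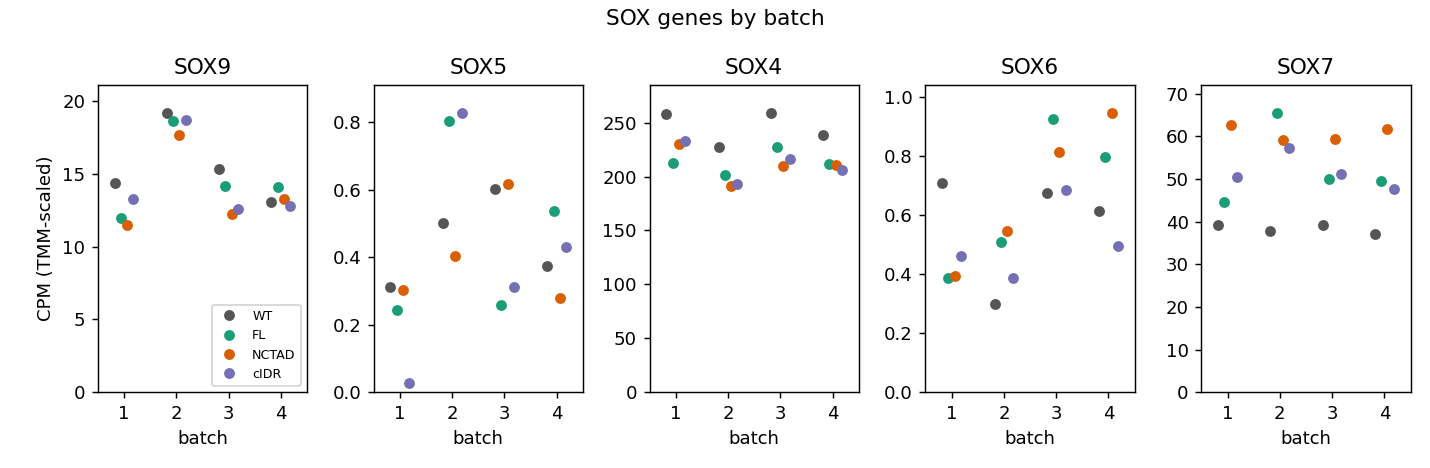
CPM (TMM-scaled) of SOX9, SOX5, SOX4, SOX6 and SOX7 by batch, 1 point per library, coloured by group. The 4 libraries of batch 2 stand above the rest for SOX9 (17.6 to 19.2 CPM), and for SOX7 the FL library of batch 2 is the highest.

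Around the SOX genes, SOX13 rose in batch 2 by 1.08 ± 0.18 (log2, edgeR adjusted p = 0.00012), with 1.47 to 2.15 CPM there and 0.558 to 1.27 CPM in the other batches. SOX2-OT, the long RNA in which SOX2 lies, had at most 0.470 CPM and rose by 1.64 ± 0.34 (edgeR adjusted p = 0.000857), while SOX2 was not called. It had 0.264 to 0.470 CPM in batch 2 and at most 0.25 CPM elsewhere. SOX2-OT thus passed the filter mainly through batch 2, and its rise is partly set by the filter. CASC15, a long RNA next to SOX4, rose by 0.45 ± 0.10 (0.00161) while SOX4 fell, and PINX1 fell by 0.20 ± 0.057 (0.00898). Of 8 tested overlapping or neighbouring genes, 4 rose, SOX2-OT among them, and 2 fell, where 27.7% of all genes rose and 26.1% fell.

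Marker lists were also called in batch 2, beside 27.7% of all genes higher and 26.1% lower. Of 10 hypoxia genes, 8 rose and none fell, with PDK1 (2.81 ± 0.085, edgeR adjusted p = 4.65e-12), BNIP3 (1.73 ± 0.058, 1.23e-11) and VEGFA (1.5 ± 0.085, 3.15e-09) having the smallest p. Their summed level was 772 to 1310 CPM in batch 2 and 281 to 548 CPM in the other batches. All 3 tested endothelial markers rose (EGFL7 by 2.57 ± 0.16, edgeR adjusted p = 8.49e-09), to a sum of 15.9 to 39 CPM against 1.82 to 16. Most of that sum was EGFL7, with a batch 2 mean of 28.2 CPM against 1.15 for VWF and 0.647 for CDH5. The filter partly set the rise of VWF and CDH5, which passed it through batch 2 or transfected libraries. Neuroblastoma markers went both ways, with 4 of 9 higher (TH by 2.15 ± 0.12, 3.11e-09) and 3 lower (GATA3, −0.80 ± 0.049, 6.63e-09). The part of these genes in the batch difference of SOX9 was not tested.

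Genes downstream of or linked to SOX factors went both ways in batch 2, as did all genes (27.7% higher and 26.1% lower). Of 11 tested Wnt target genes, which SOX7 and SOX17 can repress, 5 rose and 3 fell. NKD2, a feedback inhibitor of Wnt signalling, rose by 1.72 ± 0.12 (log2, edgeR adjusted p = 2.98e-08), DKK1, a secreted Wnt inhibitor, rose by 0.78 ± 0.061 (9.39e-08), and TCF7, a DNA-binding partner of β-catenin, fell by 0.82 ± 0.069 (1.63e-07). Mean DKK1 was 73.1 CPM in batch 2 and 61.3 in batch 1, against 35.1 and 36.7 in batches 3 and 4, and batch 2 overlapped the others. Of the 11 neuronal genes linked to group C, 4 rose and 5 fell, with DCX, a microtubule protein of young neurons, 1.08 ± 0.048 higher (2.37e-10) and NEFM, a neurofilament, −0.61 ± 0.051 (1.77e-07). Of 6 Schwann and glial markers 2 rose and 1 fell, and of 7 mesenchymal markers 2 rose and 3 fell, where 53.9% of all genes were called. Between the constructs and WT, 0 of 11 Wnt target genes were called with or without the block, with a median pooled difference of −0.0025. Without the block, 0 of 10 hypoxia genes and 0 of 9 neuroblastoma markers were called in any construct against WT (edgeR), and at an unadjusted p under 0.05 there were 2 hypoxia genes in each construct and 0, 1 and 1 neuroblastoma markers in FL, NCTAD and cIDR (1.14%, 1.42% and 1.37% of all genes). With it, 5 of 10 hypoxia genes and 2 of 9 neuroblastoma markers (TH and DBH) rose in NCTAD (0.456% of all genes called) and in cIDR (0.486%) against WT, and 0 of either list were called in FL (0.102%).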

How the data were processed

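Stranded poly(A) libraries took 250 ng of RNA and 13 PCR cycles, per the labels' protocols. The deposited estimated counts and the deposited TPM values per gene came from Salmon on GRCh38, with fastp, STAR and featureCounts also named, per the submitters' processing notes; their versions and the annotation release are not given in the sources used here. The file headers name the line BE2c, FL as wild type and WT as control; groups follow the sample labels. Estimated counts (15.5% of them fractional) were rounded, filtered with filterByExpr (19530 genes left) and fitted with edgeR 4.0.16 in R 4.3.3 (TMM, quasi-likelihood, group as the only term over 16 libraries, Benjamini-Hochberg adjusted p under 0.05). Standard errors of fold changes are the change over the root of F. Batch 2 was set against the mean of batches 1, 3 and 4 in a model with group and batch. Library sizes for CPM were TMM-scaled, with a prior count of 2 before taking log2.

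The labels give each replicate number as a batch, so numbers pair the libraries: deviations from group means correlated with a mean r of 0.308 between same-numbered libraries (0.0674 to 0.712) and −0.0945 between others. Nothing states separate cultures, so p-values measure the spread between these libraries. Within each group, no library was a copy of another. Alternatives were the replicate block, median-of-ratios factors, DESeq2 1.42.0, no low-count filter, limma 3.58.1 on log2(TPM + 1) and log2(TPM + 0.1), each library left out, and batch 2 left out with the block. Added after seeing the data were readthrough counts summed with SOX7, libraries left out with the block, the pooled constructs and the interaction with batch 2. The code was tested on simulated data.

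The members and all gene lists were chosen with earlier results of these data known. Named were the 10 genes, EPAS1, other SOX genes with a mean log2 CPM of at least 0, the neighbours PINX1, SOX2-OT, SOX9-AS1 and CASC15, up to 3 called genes of smallest p per list, and the 5 genes most like SOX7 with a mean log2 CPM of at least 1. KDR, TIE1, SOX10 and ENSG00000258724 were named after their values were seen. Gene positions are from GENCODE 29, which is older than the identifiers of the table. Plots used matplotlib 3.10.9 (Python 3.11.15).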

Additional observations from a re-analysis of the deposited data

Results flagged for a closer look

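Among 36 sets of 4 libraries (a SOX gene in a group), 3 held a library far from the other 3. Chance flags about 1 in 20 of independent sets, but these sets share batches and are not independent. SOX18 in WT was lowest in replicate 1, at 0.981 CPM, against 1.41 to 1.45 in the others. SOX9 in cIDR was highest in replicate 2, at 18.7 CPM, against 12.6 to 13.3, and SOX9 was highest in that batch in every group (17.6 to 19.2 CPM). SOX12 in NCTAD was highest in replicate 1, at 91.0 CPM, against 77.3 to 78.4, and batch 1 held the highest SOX12 library of every group.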

How the results depend on the processing

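SOX genes called in NCTAD against WT went from 1 (SOX7) to 0 in both limma fits to log2 TPM (1 or 0.1 added), with the readthrough counts added, and without any 1 of the 8 libraries (0 to 0); with the block it was 1, also in 8 of 8 fits without 1 library. SOX7 was chosen on that contrast, so neither is a test of it. The replicate block gave 1 in cIDR against WT instead of 0, and FL against WT gave 1 with the block only without FL replicate 1. The block changed no other call of a SOX gene in the 6 comparisons, but moved all called genes from 2 to 20 (FL), 5 to 89 (NCTAD) and 2 to 95 (cIDR against WT), with a biological coefficient of variation of 0.108 instead of 0.245. SOX genes called in batch 2 went from 4 to 2 with DESeq2 and both TPM settings, and to 2 to 4 without single libraries. Signs turned for SOX7 in cIDR against FL without batch 2 (0.066, block), without single libraries (−0.087 to 0.099) and so with the block (−0.085 to 0.089, of which 0.0076 without cIDR replicate 4). They also turned without single libraries for SOX9 in FL (−0.21 to 0.047) and cIDR against WT (−0.27 to 0.012) (with the block −0.13 to −0.041 and −0.17 to −0.080, no sign turned) and SOX18 in batch 2 (−0.045 to 0.16), and in batch 2 on TPM for SOX2 (0.0014 with 0.1 added) and SOX12 (0.027 with 1 and 0.028 with 0.1 added). None of these was called; the cause was not tested. Of 36 further fold changes of SOX genes between groups, 34 changed sign under at least 1 alternative and 0 were called under any. SOX5, SOX6 and SOX11 are limited by depth, with at most 47, 45 and 15 counts per library.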
